A study of Drosophila melanogaster with 3 samples.

Results

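The microRNA genes of *Drosophila melanogaster* were examined for binding of abd-A-GFP, the Hox protein abd-A fused to GFP. The 260 genes are those on the 6 main chromosome arms whose symbol begins with mir-, with let-7 and bantam, among 17683 annotated genes on these arms. A gene was counted as bound where the summit of a peak, the position of its highest signal, lay in the gene or within 2 kb on either side. The 260 genes are short, with a median length of 92 bp and a range of 50 to 174 bp. Many stand in clusters: where overlapping 2 kb windows are merged they form 203 loci, 178 with 1 gene and the fullest with 8.

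The samples were 3 biological replicates of 1 group, whole embryos of pooled sexes aged 4 to 24 h. Each came from a transgenic line that stably expresses abd-A with GFP at its C-terminus. Chromatin was precipitated with an antibody to GFP, and no second condition was compared. Peak lists were deposited for each replicate, for the 3 replicates pooled, and for peaks that pass the irreproducible discovery rate (the IDR list, 8143 peaks). The other 4 lists hold 30000 peaks each, so replicates were compared by their 8143 strongest peaks. The labels do not say what drives the fusion gene and whether the flies also carry untagged abd-A. Whole embryos mix many ages and tissues, so few cells with much binding and many cells with little cannot be told apart. A peak also does not separate binding by abd-A from DNA precipitated for another reason.

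MicroRNAs are short RNAs that Drosha and Dicer-1 cut from hairpins in longer transcripts. Loaded into AGO1, they pair with messenger RNAs mainly through the seed, the bases near their 5′ end, and lower the output of those messengers. Some hairpins lie in introns or exons of a host gene and share its promoter, and others have transcripts of their own. Hox clusters carry microRNA genes among their protein genes. In the Bithorax complex, the cluster that holds abd-A, one stretch of DNA is read on both strands as mir-iab-4 and mir-iab-8, and products of this hairpin are known to repress Ubx and abd-A.

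The hairpin of mir-iab-4 and mir-iab-8 is shown first because it is the microRNA locus nearest to abd-A itself. It lies at chr3R:16856275-16856342 (dm6), on the plus strand for mir-iab-4 and on the minus strand for mir-iab-8. The sequences are from the RefSeq copy of genome release 6, and capitals mark the mature products.
mir-iab-4 hairpin: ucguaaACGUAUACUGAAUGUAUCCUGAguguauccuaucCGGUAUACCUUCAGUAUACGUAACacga
mir-iab-8 hairpin: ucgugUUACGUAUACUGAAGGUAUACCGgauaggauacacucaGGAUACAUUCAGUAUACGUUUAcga
The mature products have different seeds on the opposite strands, here in capitals as bases 2 to 8.
mir-iab-4-5p: aCGUAUACugaauguauccuga
mir-iab-4-3p: cGGUAUACcuucaguauacguaac
mir-iab-8-5p: uUACGUAUacugaagguauaccg
mir-iab-8-3p: gGAUACAUucaguauacguuua

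The other microRNAs that the results turn on are printed in the same way, with seeds in capitals. The first pair are the other Hox-cluster microRNAs, mir-10 and mir-993 of the Antennapedia complex, whose seeds hold the same run of letters offset by 1 base.
mir-10-5p: aCCCUGUAgauccgaauuuguu
mir-993-5p: uACCCUGUaguuccgggcuuuug
The next 4 are bound genes of the mir-2 family, known for repression of the cell death genes reaper and grim.
mir-2c-3p: uAUCACAGccagcuuugaugggc
mir-2b-2-3p: uAUCACAGccagcuuugaggagc
mir-13a-3p: uAUCACAGccauuuugaugagu
mir-13b-1-3p: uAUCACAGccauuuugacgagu
A pair from the mir-92 family, expressed in neural stem cells, shares another seed.
mir-92a-3p: cAUUGCACuugucccggccuau
mir-92b-3p: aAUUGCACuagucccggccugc
The rest are mir-967, mir-287 and mir-279 with strong peaks, mir-9a with a weaker one, bantam (a growth regulator that represses the death gene hid) and the unbound let-7 (a timer of the juvenile-to-adult transition).
mir-967-5p: aGAGAUACcucuggagaagcg
mir-287-3p: uGUGUUGAaaaucguuugcac
mir-279-3p: uGACUAGAuccacacucauuaa
mir-9a-5p: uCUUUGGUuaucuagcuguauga
bantam-3p: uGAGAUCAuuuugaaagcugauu
let-7-5p: uGAGGUAGuagguuguauagu

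The share of microRNA genes with a peak nearby was about that of other genes of their length. In the IDR list, 62 of 260 microRNA genes held a summit, 23.8% (exact 95% binomial interval 18.8% to 29.5%, counting error only). The share was 26.6% over all genes and 26.5% over protein-coding genes, whose windows are longer. Over 749 other genes of at most 200 bp it was 23.9%, and over 32715 windows of 4092 bp tiled along the arms it was 17.6%. The microRNA genes were thus near the share of other short genes and above that of arbitrary DNA of the same length. Of the bound genes, 39 had 1 summit, 16 had 2 and 7 had 3 or more, with 4 as the highest number.

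The replicates gave nearly the same share. Summits lay near 67 microRNA genes (25.8%) in replicate 1, 59 (22.7%) in replicate 2 and 58 (22.3%) in replicate 3, a mean of 23.6% ± 1.90 (SD, n = 3). The same lists gave 27.9%, 26.0% and 26.4% over all genes, 25.4%, 21.1% and 24.8% over other short genes, and 17.7%, 17.2% and 17.5% over tiled windows, in replicates 1, 2 and 3. The microRNA share was above the tiled windows in every replicate, and above the other short genes in replicates 1 and 2 only. In all 3 replicates 52 microRNA genes were bound, and all 52 are among the 62 of the IDR list. The other 10 are mir-2280, mir-4972, mir-1002, mir-968, mir-2b-2, mir-8, mir-9384, mir-980, mir-4961 and mir-4957, which lack a summit among the strongest 8143 peaks in at least 1 replicate.

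The pooled list of 30000 peaks reached 96 microRNA genes (36.9%), against 39.7% of all genes, 39.5% of other short genes and 38.8% of tiled windows. Of these, 34 had weaker pooled peaks only. A further 153 microRNA genes had no summit in any list, the full replicate lists included. In the longer list the microRNA genes were therefore no more often bound than tiled windows.

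The share of microRNA genes with a summit grew with the window, as did that of other short genes. With 500 bp on each side the IDR list reached 6.92% of microRNA genes, 9.48% of other short genes and 6.04% of tiled windows. With 1 kb these shares were 13.8%, 15.6% and 10.5%, and with 5 kb 38.5%, 38.1% and 32.8%. With 10 kb they were 56.5%, 52.7% and 48.4%. The microRNA genes were below the other short genes from 500 bp to 2 kb and above them at 5 and 10 kb, by small margins for which no test was made.

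**Figure D1:**
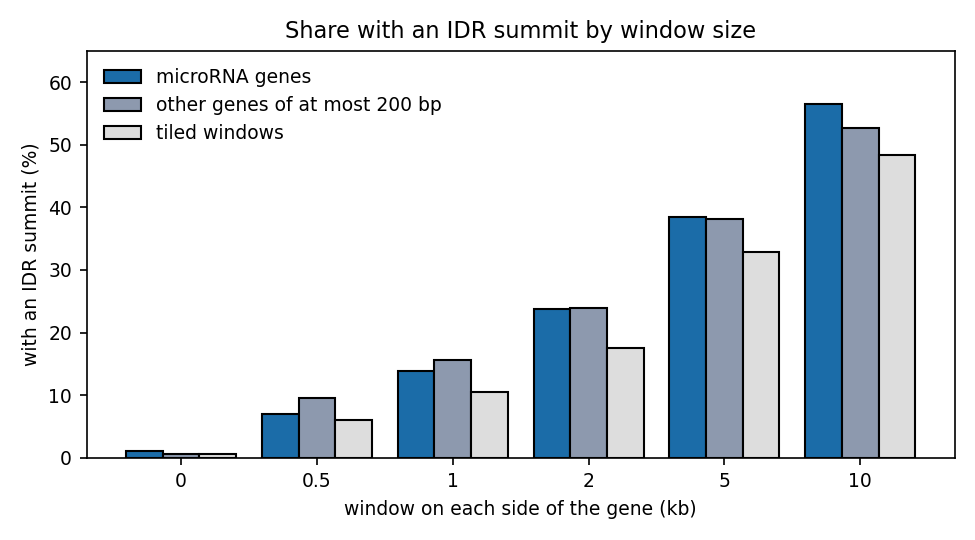
Share of genes or windows (percent, vertical axis) with an IDR summit for windows of 0 to 10 kb on each side (horizontal axis), for 260 microRNA genes, 749 other genes of at most 200 bp and 32715 tiled windows. At 2 kb the bars stand at 23.8%, 23.9% and 17.6%, and at 10 kb at 56.5%, 52.7% and 48.4%.

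The windows of the 62 bound genes held 80 different IDR summits, 70 in the window of 1 gene and 10 shared by 2 or more. Only 3 of the 80 lay inside a hairpin, those at mir-287, mir-2496 and mir-4962. That is 1.15% of microRNA genes, against 0.534% of other short genes and 0.544% of tiled stretches of the same length as a hairpin, a difference that rests on 3 genes. Within 200 bp of a hairpin lay 11, and within 500 bp 20, with a median distance of 903 bp. On the strand of the nearest microRNA, 44 were upstream and 36 downstream of the hairpin's centre.

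Counted per megabase in the replicates, summits were at 69.2 ± 13.9 within 500 bp of the hairpins, 95.6 ± 5.04 from 500 bp to 2 kb, 90.4 ± 1.10 from 2 to 5 kb and 74.7 ± 1.70 from 5 to 10 kb (mean ± SD, n = 3). The mean over the arms was 60.8 summits per megabase in each list. The nearest 500 bp stood below the arms' mean in replicate 3, at 57.7, and above it in replicates 1 and 2, at 84.6 and 65.4. From 500 bp to 5 kb the density was above the arms' mean in all 3 replicates. Within 500 bp, upstream summits outnumbered downstream ones in each replicate, 16 to 6, 10 to 7 and 11 to 4 in replicates 1, 2 and 3. These counts take each gene's flanks separately, so a summit beside a cluster counts for each of its genes.

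**Figure D2:**
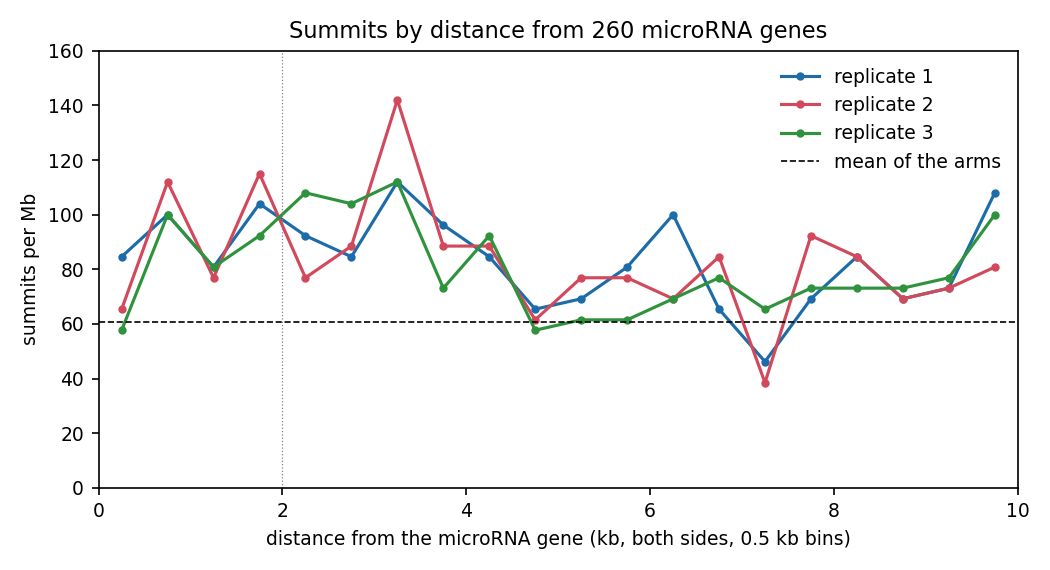
Summits per megabase (vertical axis) by distance from the hairpin in bins of 500 bp on both sides (horizontal axis, kb), with 1 line for the 8143 strongest peaks of each replicate and a dashed line at the arms' mean of 60.8. The first bin stands at 84.6, 65.4 and 57.7 in replicates 1, 2 and 3, and the replicate lines lie above the dashed line from 500 bp to 4.5 kb.

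By annotation, summits near microRNAs were more often at transcript starts and in noncoding exons than IDR summits at large. Within 500 bp of a transcript start were 33 of the 80 (41.2%), against 27.4% of all 8143 IDR summits. Exons without coding sequence held 8 (10%) against 3.28%, introns 30 (37.5%) against 46.4%, and DNA between genes 9 (11.2%) against 22.7%. No summit near a microRNA was in a coding exon outside promoters, where 0.209% of all IDR summits lay. The windows are centred on annotated genes, so their share of promoter and exon differs from that of the arms by construction, and no test was made.

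A larger share of host-gene than of intergenic microRNAs was bound when genes were counted, but the difference shrank to 1.67 percentage points when loci were counted and to 0.343 points within 500 bp, and was -3.62 points inside the genes. A host here is a gene that contains the hairpin on the same strand. Of 182 host-gene microRNAs 44 were bound in the IDR list (24.2%, interval 18.1% to 31.1%), against 8 of 48 intergenic ones with no other gene on either strand (16.7%, interval 7.48% to 30.2%). In replicates 1, 2 and 3 the host-gene share was 27.5%, 23.1% and 22.0%, against 16.7% of the intergenic microRNAs in each. The difference was 7.51 percentage points ± 2.91 (SD, n = 3) and had the same sign in 3 of 3 replicates. An exact sign-flip permutation test over the replicates gave p = 0.25 two-sided, the smallest value that 3 replicates allow, and 0.25 after adjustment over 4 such comparisons. The design therefore cannot place this difference past a threshold of 0.05, and the exact intervals of the IDR shares overlap.

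MicroRNAs in noncoding hosts stood above those in coding hosts and those between genes. Those with a gene on the opposite strand only, described below, had the same IDR share of 37.0%. Of 46 such microRNAs, 17 were bound in the IDR list (37.0%, interval 23.2% to 52.5%), and 47.8%, 32.6% and 34.8% in replicates 1, 2 and 3. In protein-coding hosts 27 of 136 were bound (19.9%, interval 13.5% to 27.6%), and 20.6%, 19.9% and 17.6% in replicates 1, 2 and 3. The share in noncoding hosts was 21.7 points ± 8.23 above that of intergenic microRNAs and 19.0 points ± 7.43 above that in coding hosts. The share in coding hosts was 2.70 points ± 1.53 above that of intergenic microRNAs (SD, n = 3 each). All 3 differences had 1 sign in every replicate, and each exact sign-flip test again gave p = 0.25 (adjusted 0.25). The replicate ranges of noncoding and coding hosts do not overlap, but the replicates score the same genes. The exact intervals of the 2 IDR shares do overlap.

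Clusters weigh on these shares, since neighbouring hairpins can share a summit. Counted as loci, 14 of 32 in noncoding hosts were bound (43.8%), 26 of 125 in coding hosts (20.8%) and 7 of 30 between genes (23.3%). A locus with microRNAs of different classes counts in each. The bound locus of mir-275 and mir-305 counts with noncoding hosts and with intergenic microRNAs. That of mir-iab-4 and mir-iab-8 counts with noncoding and with coding hosts. Their summits also score in both classes when genes are counted. By locus the coding-host and intergenic microRNAs are thus in the reverse order of that by gene. Other genes of at most 200 bp ran differently, with 17.0% bound of 47 in noncoding hosts, 18.9% of 312 in coding hosts and 24.6% of 293 between genes. Tiled windows centred in noncoding genes were bound in 22.4%, those in coding genes in 18.3% and those between genes in 15.8%. The intervals for so few microRNAs in noncoding hosts are wide, and whether the type of host, its promoter or the number of peaks in the neighbourhood sets the share was not tested.

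**Figure D3:**
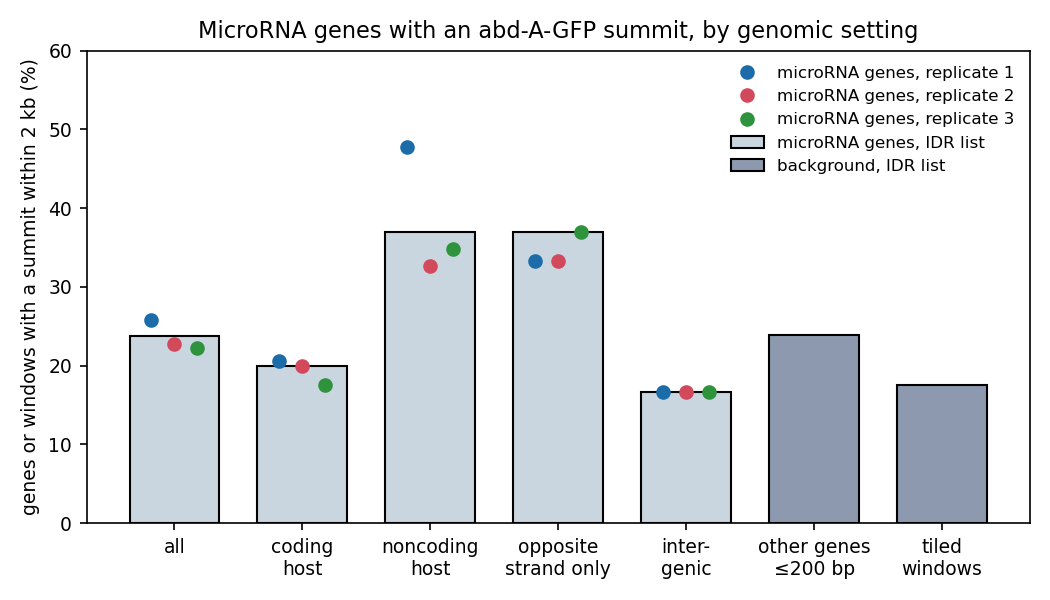
Share with a summit within 2 kb (percent, vertical axis) for all 260 microRNA genes and by genomic setting, with bars for the IDR list and points for the 8143 strongest peaks of each replicate, beside bars for other short genes and tiled windows. Noncoding hosts range from 32.6% to 47.8% over the replicates, above coding hosts at 17.6% to 20.6% and intergenic microRNAs at 16.7%. MicroRNAs with a gene on the opposite strand only range from 33.3% to 37.0%, within the range of noncoding hosts.

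A gene on the opposite strand only covered 27 microRNAs, of which 10 were bound (37.0%, interval 19.4% to 57.6%), and 33.3%, 33.3% and 37.0% in replicates 1, 2 and 3. They are 5 of 19 loci (26.3%). Of the 10, 6 are the cluster mir-959 to mir-964, and all of these share 1 summit in an intron of DIP-theta, a cell surface protein gene of the nervous system. The strongest replicate values at that summit were 2.25, 2.55 and 2.23 times the list median. In the IDR list it ranked 3625, at 1.06 times that list's median. The last 3 microRNA genes overlapped another gene in part, and none was bound.

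The host genes themselves were often bound where the hairpin was not. Of 128 coding hosts, 47 (36.7%) had a summit within 500 bp of a transcript start, against 12.8% of all protein-coding genes. In the gene or within 2 kb, 72 (56.2%) had one, against 26.5% of all protein-coding genes. Hosts are long, with a median of 14094 bp against 2166 bp for all protein-coding genes, and have 2.21 starts on average against 1.41. In 30 coding hosts the promoter was bound while no microRNA of the host had a summit within 2 kb, in 17 both were, and in 8 only the microRNA was.

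Of 33 noncoding hosts, 15 (45.5%) had a bound promoter, against 10.3% of noncoding RNA genes other than microRNAs. Their median length was 6494 bp, against 706 bp for those other genes. Promoter and microRNA were both bound in 10, the promoter alone in 5 and the microRNA alone in 4. Noncoding hosts thus had both bound more often, 10 of 33, than coding hosts, 17 of 128, and no test was made. The 2 calls are not separate where a host start lies near the hairpin, since 1 summit can then score both. At mir-279, mir-276a and mir-1000 every IDR summit in the window was within 500 bp of a host start. The same held in coding hosts, as at mir-2497 in her.

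Several well-known microRNAs sit in hosts of this kind. Summit counts of hosts, here and in the next paragraph, take in 2 kb on each side of the host. The promoter of HnRNP-K, host of mir-7 (a regulator of photoreceptor differentiation), was bound, and mir-7 had no peak in any list. The promoter of SREBP, the sterol-response factor that hosts mir-33 (a regulator of lipid metabolism), was also bound without a summit near mir-33. The gene hth, whose product is a DNA-binding partner of Hox proteins, held 24 IDR summits and a bound promoter, but none lay within 2 kb of mir-4944 in it. Glut4EF held 31 around mir-9371 and SKIP 16 around mir-1010 in the same way. The cell cycle gene E2f1 held 8 summits, none at its promoter or near mir-11 and mir-998.

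Noncoding hosts gave similar cases. The host of mir-124, a microRNA abundant in neurons, held 5 summits with 1 or more at its promoter, and mir-124 had only a weaker pooled peak. The host of mir-184 held 5 and that of mir-263a (symbol mir-bft), which protects sense organ cells from death, held 1, again with no IDR summit by the hairpin.

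By signal in the IDR list, the strongest peak near a microRNA was that at mir-967, though no summit near a microRNA was among the 100 strongest of that list. The median signal of the 80 summits was 1.08 times the IDR list's median, with a range of 0.686 to 3.99, while the strongest peak anywhere reached 22.8. Below, strengths are the authors' signal value in a replicate, at the peak whose summit lies in the IDR peak's interval, divided by that replicate list's median. That median is over the full replicate list, weaker peaks included, so strengths are not on the scale of the IDR list's median. Of 236 replicate peaks matched in this way to the 80 summits, 232 contain the IDR summit. For mir-967 (chr2L:12460004-12460100, minus strand) the values were 8.62, 9.72 and 7.53 in replicates 1, 2 and 3, and the peak ranked 117 in the IDR list. Its summit lay 1436 bp upstream of mir-967 and 232 bp from a start of the host bun, a growth regulator of the TSC22 family. The peak is thus at an alternative promoter of the host and not on the hairpin.

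The peak at mir-287 was above that at mir-967 in replicates 1 and 3 and below it in replicate 2. The mir-287 peak lay on the hairpin itself. It was 8.94, 7.78 and 8.57 times the median in replicates 1, 2 and 3 (8.43 ± 0.594, SD, n = 3), rank 137 in the IDR list. The peak spans chr2L:17574371-17574965, and the hairpin chr2L:17574610-17574702 on the plus strand, between genes, contains the summit. Of the 3 hairpins that hold a summit, this one had the strongest peak. The bases within 50 bp of its summit are shown because the DNA of a microRNA and the summit of a peak coincide in them, with TAAT or ATTA, the core of Hox binding sites, in capitals.
mir-287 summit, chr2L:17574623-17574723, plus strand: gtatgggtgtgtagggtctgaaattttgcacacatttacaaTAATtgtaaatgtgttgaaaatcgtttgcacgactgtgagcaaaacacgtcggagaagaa
The letters of mir-287-3p, printed above as RNA, can be read in this window after the TAAT.

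The mir-92 pair stands in the host jigr1, and both were bound. The strongest of the pair's peaks lay beside mir-92b (chr3R:25651398-25651497, plus strand), 868 bp downstream and past the end of the host. It was 8.48, 7.64 and 8.46 times the median in replicates 1, 2 and 3, rank 143. The stronger of the 2 summits at mir-92a had 3.95, 2.59 and 3.18, and was at a promoter of jigr1. All values at this mir-92b summit were above those at mir-92a, while another mir-92b summit, at a promoter upstream, had 2.44, 2.24 and 2.08. The bases within 50 bp of the strongest summits at mir-967, mir-279 and mir-10, not printed here, hold no TAAT or ATTA. Those at mir-993 and bantam hold 1 each. The bases within 50 bp of the summit at mir-92b hold the core word TAAT at 2 places.
mir-92b summit, chr3R:25652265-25652365, plus strand: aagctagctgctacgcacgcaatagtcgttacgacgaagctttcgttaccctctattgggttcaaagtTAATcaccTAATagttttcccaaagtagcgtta

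On arm 2R, mir-4978 lies opposite to mam, the gene of the Notch coactivator Mastermind, and held 4 IDR summits. The strongest was 7.99, 6.99 and 8.72 times the median in replicates 1, 2 and 3, rank 163. At mir-14, which limits cell death and fat storage, the strongest summit was 6.25, 5.69 and 5.70 times the median, and a weaker one marked the promoter of its noncoding host, at 3.51 ± 1.13 (SD, n = 3). The peak at mir-279, which shapes the neurons that sense carbon dioxide, stood at the promoter of its noncoding host, 121 bp from the start and 1194 bp upstream of the hairpin. Its strength was 5.01, 4.39 and 5.74 times the median.

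Its neighbour in the same transcript, mir-996, carries the same seed GACUAGA. It had no IDR summit within 2 kb, and the nearby peaks ranked 6734, 19602 and 14274 in replicates 1, 2 and 3, so only replicate 1 put it among the strongest 8143.

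Some microRNAs of coding hosts had several summits each. In the kinase gene Tlk on the X, mir-4962 held 4 IDR summits, of which 1 lay inside the hairpin at 4.80, 3.13 and 4.04 times the median in replicates 1, 2 and 3. In Mob2, the gene of a kinase activator, mir-4968 also held 4, the strongest at 4.03 ± 0.756 (SD, n = 3), for which the replicate 2 peak lies beside the IDR summit. The peak at mir-2282 lay in an intron of sty, the gene of the receptor signalling inhibitor Sprouty, at 3.83 ± 0.791. That at mir-4946 lay in an intron of tup, a LIM homeodomain gene of heart and neurons, at 3.55 ± 0.831. The rest of the 25 strongest bound genes, including mir-2493, mir-219, mir-4973, mir-9377, mir-9373, mir-4959 and the pair mir-310 and mir-311, ranged from 3.17 ± 0.497 at mir-9373 to 4.65 ± 0.792 at mir-2493. From mir-14 downward, neighbours in this order overlap in their replicate values.

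**Figure D4:**
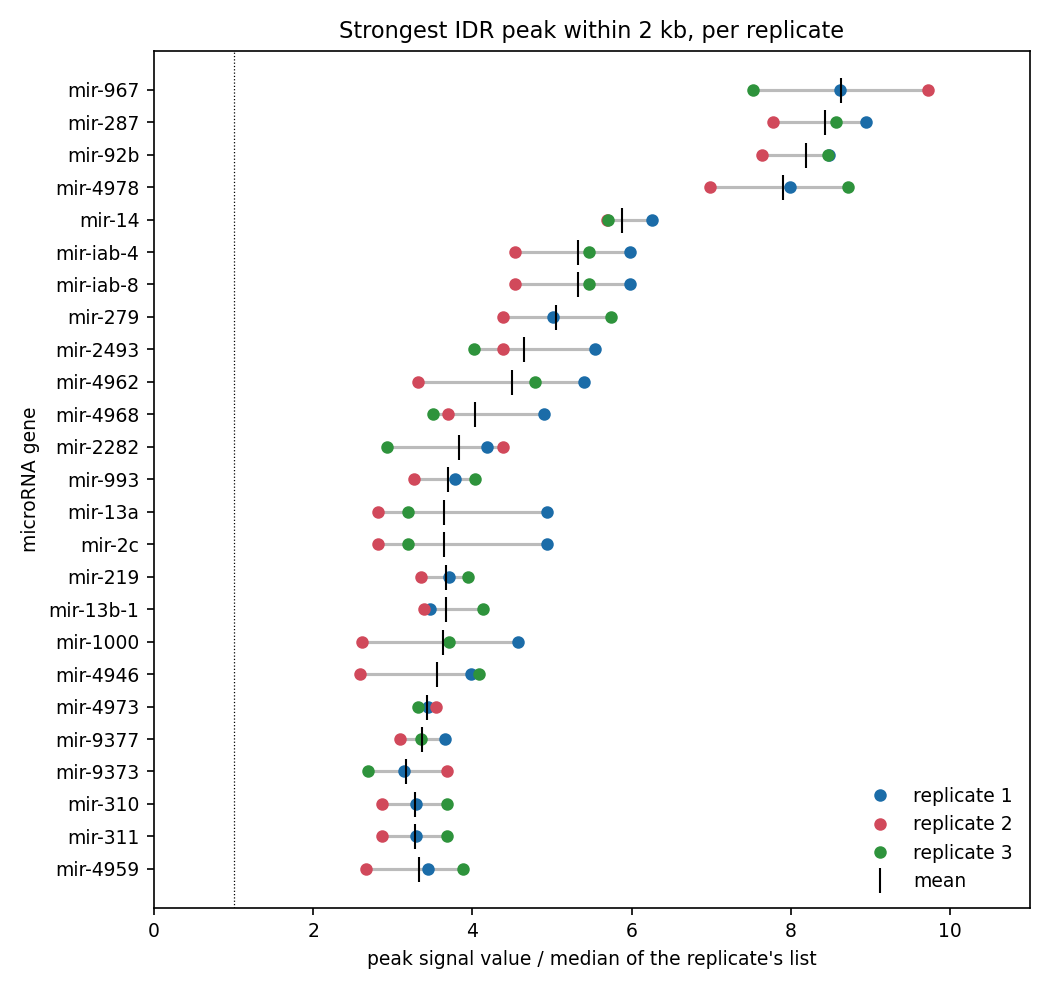
Signal value at the strongest IDR peak within 2 kb, divided by the replicate list's median (horizontal axis, dotted line at 1), for the 25 bound microRNA genes with the highest IDR signal, ordered by it. Points are the 3 replicates and the tick is their mean. The values at mir-967, mir-287, mir-92b and mir-4978, all between 6.99 and 9.72, lie above those of the other 21.

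All 4 Hox-cluster microRNAs had an IDR summit, in 3 separate loci, against 23.9% of other short genes and 17.6% of tiled windows. The window around the hairpin of mir-iab-4 and mir-iab-8 is identical for both genes, so its 3 IDR summits belong to both and are 1 observation. None lay within 1 kb of the hairpin. On the plus strand the first summit lay 1590 bp to the left, in an exon of lncRNA:iab4, at 2.87, 2.10 and 2.46 times the median in replicates 1, 2 and 3. The strongest lay 1594 bp to the right, in an intron, at 5.98, 4.54 and 5.47 times the median, rank 556. The remaining one, in the same peak interval at 1796 bp, had 1.86 and 2.85 in replicates 1 and 2. In replicate 3 the peak that contains it has its summit 1558 bp from the hairpin and is the one already given at 5.47. The nearest replicate 3 summit in the interval, at 1968 bp, had 0.467, and its peak does not contain the IDR summit. The first and the strongest summit were thus above the median of the full list in all 3 replicates. That median takes in weaker peaks: the first summit was 2.59 times the pooled list's median but 1.09 times the IDR list's. Among the strongest 8143 peaks the window held 3, 4 and 2 summits in replicates 1, 2 and 3.

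The bases within 50 bp of the strongest of the 3 summits hold 1 TAAT.
mir-iab-4 and mir-iab-8 summit, chr3R:16857852-16857952, plus strand: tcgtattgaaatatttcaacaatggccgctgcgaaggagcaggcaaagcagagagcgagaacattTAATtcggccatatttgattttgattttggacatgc

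Stronger peaks stood farther out on the side of lncRNA:iab4, the noncoding host of mir-iab-4. Within 10 kb of the hairpin were 9 IDR summits. One at 8914 bp to the left had 9.11, 7.21 and 8.30 times the median in replicates 1, 2 and 3, rank 141. Another at 5344 bp to the left had 7.60, 7.11 and 6.91, rank 204. At 6616 and 6386 bp to the left, 2 summits marked the start of lncRNA:iab4. The strongest peak in the 2 kb window was thus weaker than both of these in each replicate.

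On the minus strand mir-iab-8 lies in MSAmiP, a coding gene with 30 IDR summits in its body, and in lncRNA:iab8 with 33. The 97162 bp that separate abd-A from Abd-B held 36 IDR summits, a mean of 1.52 for each 4092 bp. Cut into 23 windows of that length, 17 held a summit, 7 held 3 or more and the fullest held 5. The 3 summits at the hairpin were thus above the mean of the surrounding DNA but below its fullest window.

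**Figure D5:**
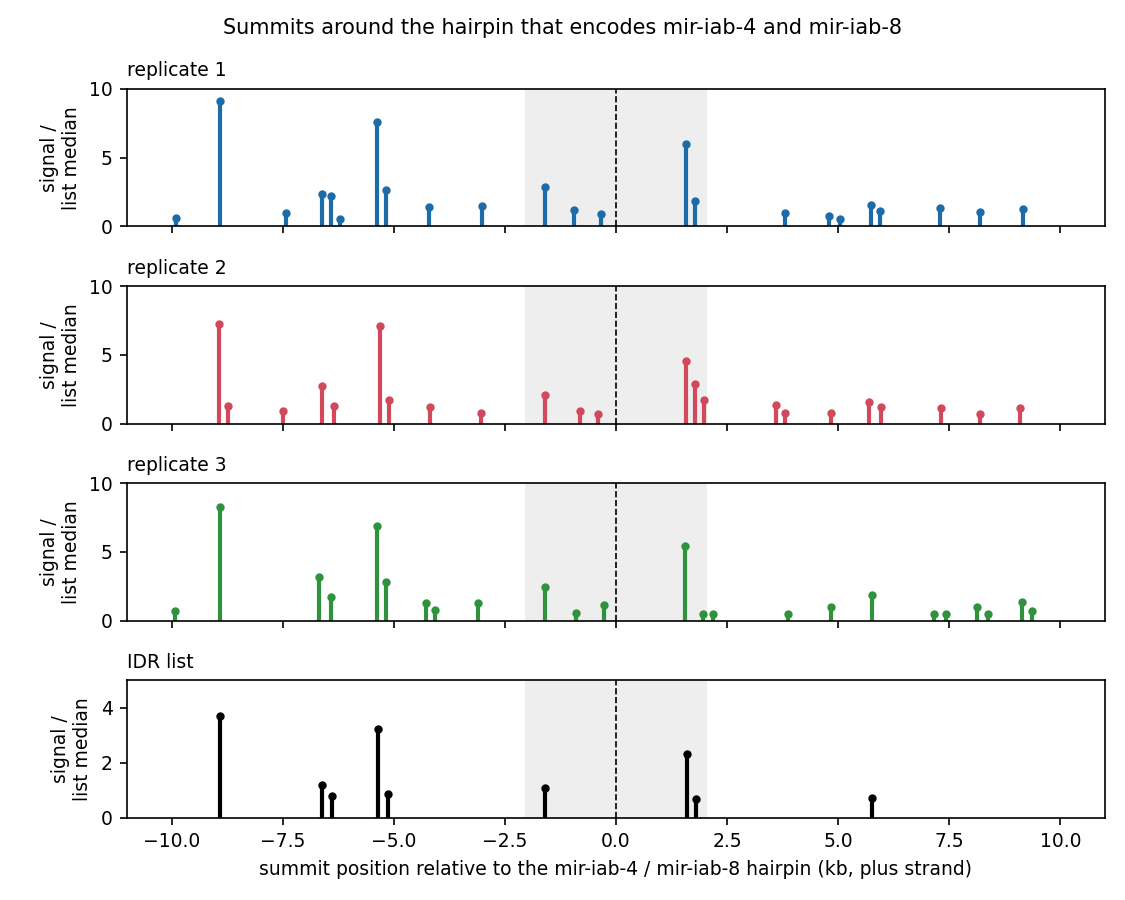
Summits within 10 kb of the mir-iab-4 and mir-iab-8 hairpin (horizontal axis, kb on the plus strand; dashed line at the hairpin; grey, the 2 kb windows) with signal value over the list's median (vertical axis), in the 3 full replicate lists and the IDR list. The tall peaks 8914 and 5344 bp to the left and 1594 bp to the right recur in every replicate.

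The Antennapedia complex microRNAs, mir-10 and mir-993, lie far from the Bithorax complex and were each bound once. For mir-993 (chr3R:6776333-6776451, plus strand) the summit lay 594 bp downstream in an exon of its noncoding host, at 3.78, 3.26 and 4.03 times the median in replicates 1, 2 and 3. For mir-10 (chr3R:6809506-6809582, minus strand) it lay 1233 bp upstream and 42 bp from the start of another noncoding RNA, lncRNA:CR45915, at 3.47, 2.13 and 2.75. All values at mir-993 were above the 2 lower values at mir-10, and the ranges overlap between 3.26 and 3.47. Both microRNAs were weaker than the strongest summit at mir-iab-4 and mir-iab-8 in every replicate.

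Of the microRNAs with known roles in growth and cell death, 6 of 13 had an IDR summit, in 4 of 9 loci, against 23.9% of other short genes. The cluster mir-13b-1, mir-13a and mir-2c in lncRNA:CR45911 shared 1 summit between all 3, at 3.47, 3.39 and 4.13 times the median in replicates 1, 2 and 3. A summit within reach of mir-13a and mir-2c only had 4.94, 2.81 and 3.19. Their relative mir-2b-2 was bound weakly and unevenly, at 2.61, 0.659 and 2.91. At bantam (chr3L:642208-642288, plus strand) the summit lay 739 bp downstream in an exon of the host, at 3.01, 1.63 and 2.19. It is 1 of 8 IDR summits in that host gene or within 2 kb of it. Also bound was mir-14, described above, which is counted again in the metabolism list below. The rest of the list, mir-2a-1, mir-2a-2, mir-2b-1, mir-11, mir-13b-2, mir-308 and mir-278, held none.

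Of 12 microRNAs known from the nervous system and sense organs, 5 were bound, in 5 of 11 loci, against 23.9% of other short genes. They are mir-279, mir-92a, mir-92b, mir-9a and mir-1000. At mir-1000, a regulator of a glutamate transporter, the peak stood at the promoter of its noncoding host, at 4.57, 2.61 and 3.71 times the median in replicates 1, 2 and 3. At mir-9a, which limits the number of sense organ precursors, it was weaker, at 2.07, 1.92 and 2.04. Its relatives mir-9b and mir-9c, which share the seed CUUUGGU, lie in grp and had no IDR summit.

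Of 10 microRNAs known from metabolism, ageing and hormone response, 5 were bound, in 4 of 8 loci, against the same 23.9% of other short genes. They are mir-14, mir-8, mir-276a, mir-305 and mir-275. Of these, mir-14 is also counted among the bound genes of the growth and death list, so the 2 lists share its locus. The pair mir-305 and mir-275 shared 1 summit at 2.69, 2.19 and 1.96 times the median in replicates 1, 2 and 3. At mir-276a the summit lay 71 bp from the start of the host, at 2.03, 1.57 and 2.13. At mir-8, a growth regulator of the fat body, 2 weak summits had 1.63 ± 0.607 and 1.5 ± 0.631 (mean ± SD, n = 3), and in replicate 3 neither peak put mir-8 among the bound genes. The pair mir-8 and mir-276a had the lowest mean strengths of the bound microRNAs in these role lists.

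The developmental timing and early embryonic microRNAs had no IDR peak. The let-7 complex, let-7, mir-100 and mir-125 in 1 noncoding host that is switched on late in development, had no peak in any list, and the host held no IDR summit. The early cluster of 8, mir-309, mir-3, mir-286, mir-4, mir-5 and the mir-6 genes, which clears maternal messengers in the early embryo, held none in its 1 locus. At mir-1, the muscle microRNA, there was 1 weaker pooled peak, which ranked 17254, 20343 and 23420 in replicates 1, 2 and 3. Read against the background share of 23.9% of other short genes, 0 bound in so few loci is a count on which no test was made.

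The genes that make and use microRNAs were bound in 1 of 7 cases. AGO1, whose product carries microRNAs to their targets, held 2 IDR summits, the strongest at 2.12 times the IDR list's median. The nuclease genes drosha and Dcr-1, their partners pasha and loqs, the silencing factor gw and the exporter gene Ranbp21 held none. Over all protein-coding genes 26.5% were bound.

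All 260 genes matched a hairpin in the RefSeq annotation, with 481 mature products, and 33 seeds were carried by 2 or more genes (73 genes in all). At least 1 gene was bound in 15 of these groups, and none in the other 18. Over all 260 microRNA genes the share bound was 23.8%. The groups are not separate, since mir-276a, mir-9a, mir-2b-2 and mir-2c each count in more than 1 of them. The AUCACAG seed of the mir-2 family is on 14 genes, 4 bound: mir-2c, mir-2b-2, mir-13a and mir-13b-1. The AUUGCAC seed is on 6 genes, 4 bound: mir-92a, mir-92b, mir-310 and mir-311. The last pair shares 1 summit near a start of qsm, at 3.29, 2.87 and 3.68 times the median in replicates 1, 2 and 3. Copies of 1 seed thus differ in whether a peak lies nearby, and the 4 bound genes of each family stand in 2 or 3 loci.

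The IDR share of microRNA genes was 35.7% of 56 on arm 2L, 31.0% of 58 on 3R, 25.8% of 31 on 3L, 14.5% of 55 on 2R and 13.8% of 58 on X, with 0 of 2 on chromosome 4. All genes varied less between the large arms, with 26.0% on 2L, 26.1% on 3R, 29.1% on 3L, 26.6% on 2R and 25.7% on X. On chromosome 4 the share was 4.39% of all genes and 3.04% of tiled windows. Other short genes had 19.2%, 28.3%, 34.6%, 23.0% and 11.3% on 2L, 3R, 3L, 2R and X, and tiled windows 19.3%, 18.1%, 18.4%, 17.8% and 14.9%. Among the large arms, microRNA genes, other short genes and tiled windows were each lowest on X, and microRNA genes and other short genes differed most on 2L. In replicates 1, 2 and 3 the microRNA share was 35.7%, 28.6% and 32.1% on 2L, and 13.8%, 12.1% and 13.8% on X. By locus the IDR shares were 31.7% on 2L and 20.0% on X, closer together than by gene. No test of the difference between arms was made.

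Of the 5 sequence words counted, 4 were less frequent near microRNAs than over all peaks and 1 was slightly more frequent. Each word was sought on both strands, so its reverse complement also counted. Within 50 bp of the summit on each side, TAAT was found in 40 of 80 (50%), against 57.7% of all IDR summits. GAGAG, a word of GAGA factor sites, was in 16 (20%) against 19%. TTTATGG, a word of Abd-B-like Hox sites, was in 2 (2.5%) against 5.7%. The composite Hox word TGATTTAT was in none, against 1.12%. The composite Hox word TGATTAAT, which also holds TAAT, was in none, against 0.344%. The base composition was close, at 45.9% G and C near microRNAs and 44.9% over all IDR summits. These are counts of letters, and no test was made.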

How the data were processed

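Chromatin immunoprecipitation with an antibody to GFP, followed by sequencing, was done by the authors on 3 biological replicates, with fragments of 200 to 800 bp per the labels. The age field holds a number that is no embryo age, so the age was taken from the sample source. Replicate lists were called against 1 control file, the pooled list on all 3 replicates, and the IDR list from these 4, on dm6, per text records that came with the deposited lists. The aligner, peak caller and thresholds are likewise not given in the sources used here, the read depth is unknown, and the control's genotype is not given. The signal value is a score of the authors' peak caller in the deposited files and was used within a list only. The deposited −log10 q-value stands at its ceiling in 93.8% of IDR peaks and was not used.

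Genes came from Ensembl release 115 (FlyBase 6.54), without 481 entries of mature products. Another 2 microRNA genes off the main arms were not analysed. Summits were counted per window with Python 3.11.15, numpy 2.4.6, pandas 2.3.3 and scipy 1.17.1, with counting tested on simulated data. Figures were drawn with matplotlib 3.10.9. Replicate shares were compared by exact sign-flip tests, with the highest p of the 4 comparisons taken as the adjusted value of each. As all 4 are equal, this is also their Benjamini-Hochberg value. Whether the replicates came from separate cultures of flies is not stated. A sign-flip p of 0.25 says only that the 3 replicate differences share a sign. It does not measure their spread, and the replicates score the same genes. Genes named were mir-iab-4, mir-iab-8, let-7, bantam, the 25 bound genes with the highest IDR signal and bound genes of the role lists. Hosts named, the mir-959 to mir-964 cluster and seed relatives were chosen after their values were seen. Members, lists and tests were chosen with earlier results of these data known.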

Additional observations from a re-analysis of the deposited data

How the results depend on the processing

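The count of 62 bound microRNA genes depended on the window: 3 inside the gene, 18 at 500 bp, 36 at 1 kb, 100 at 5 kb and 147 at 10 kb. It was 96 in the pooled list. The mean share over replicates, 23.6%, was 6.92% at 500 bp, 59.5% at 10 kb and 37.4% with the full replicate lists, and ranged from 22.5% to 24.2% with 1 replicate left out. The host minus intergenic difference in the IDR list, 7.51 points, turned to -3.62 inside the gene and to -6.74 where noncoding hosts were counted with intergenic microRNAs. The replicate mean turned to -7.94 under that last grouping. The IDR difference was 0.343 at 500 bp, 12 at 10 kb, 0.801 for the stronger 50% of IDR peaks, 16.1 in the pooled list, 3.02 by peak interval, 1.67 by locus and 3.19 for protein-coding hosts only. With 1 replicate left out the replicate mean was 5.86 to 8.61. The 3 summits at mir-iab-4 and mir-iab-8 were 0 inside the gene, 0 at 500 bp, 0 at 1 kb, 9 at 10 kb and 5 in the pooled list. Nested windows add summits by construction. The cause of the other changes was not tested. The replicate mean difference kept its sign but was 1.40 at 500 bp, 2.70 for protein-coding hosts only, 12.3 at 10 kb and 18.8 with the full lists, with exact sign-flip p = 0.50 at 500 bp and 0.25 in the others. The rest kept their direction, within the replicate spread or 1.5 times the count. No paired analysis was possible because there is 1 group. Depth is unknown, and peak lists give no value for a gene without a peak.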
